A study of Arabidopsis thaliana with 6 samples.

Results

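Iron uptake and storage genes were followed in the root tip of Arabidopsis thaliana, in the Col-0 wild type and in the hsl2 mutant in the Col-0 background. The members were 10 genes chosen by locus, out of 37336 gene identifiers in the count files: the regulators FIT, BHLH38, BHLH39, PYE and BTS, the uptake genes IRT1 and FRO2, the nicotianamine synthase gene NAS4, and the ferritin genes FER1 and FER3. Each genotype had 3 libraries of total RNA from the outermost 0.5 mm of primary roots at 7 days, and seedlings grew on upright agar plates with no sucrose in long days (16 h light, 8 h dark). The series asks how the hsl2 mutation affects sloughing of the root cap. HSL2 is a receptor-like kinase, the labels do not name the hsl2 allele, and the iron content of the medium was not given in the sources used here.

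Arabidopsis takes up iron by a reduction strategy. Under iron shortage the transcription factor FIT, paired with a bHLH partner such as BHLH38 or BHLH39, switches on the ferric-chelate reductase gene FRO2 and the iron transporter gene IRT1 in the root epidermis. PYE is a bHLH repressor of iron homeostasis genes, BTS is an E3 ubiquitin ligase that restrains the response, nicotianamine made by NAS enzymes chelates iron for transport inside the plant, and ferritins store iron in plastids, with higher transcript levels when iron is plentiful.

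The libraries held 15051468 to 20468890 counts each. A count of 3, the floor used here for 0, corresponded to 0.148 to 0.213 CPM (counts scaled to library size by the trimmed mean of M values, TMM). Root tip genes were present in every library: SMB, a root cap transcription factor gene, was at 25.2 to 44.5 CPM and PLT1, a stem cell regulator gene, at 27.9 to 66.8 CPM. The summed level of 6 root tip markers was 131 to 177 CPM across wild type libraries, and 86.3 to 138 CPM in hsl2. A pair of libraries stood apart. The hsl2 1 library had 79.3 CPM over 6 green tissue markers, against 6.98 to 15.9 CPM in the other 5. The wild type 3 library had 31.7 CPM over 6 root hair markers, against 6.49 and 9.78 CPM in wild type 1 and 2 and 21.9 to 45.1 CPM in hsl2. Over all genes tested, it was nearer to hsl2 2 and 3 (chi-square per degree of freedom 13.3 and 12.7) than to wild type 1 and 2 (17 and 21.5). It was far from hsl2 1 (42.0). All 6 root hair markers had counts in every library, as did the green tissue markers except LHCB2.1 in wild type 2.

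The ferritin genes had the highest levels of the set, FRO2 was low but present in every library, and IRT1, BHLH38, BHLH39 and NAS4 were at or near 0. Per kilobase of exon in the TAIR10.1 annotation, the mean wild type level was 342 ± 109.7 CPM for FER1 and 135 ± 14.7 CPM for FER3 (SD, n = 3). It was 14.9 ± 1.61 CPM for FIT, 14.4 ± 0.182 CPM for BTS, 9.04 ± 1.17 CPM for PYE and 1.38 ± 0.492 CPM for FRO2 on the same per-kilobase scale. FIT and BTS did not differ beyond their spread in this order, whereas the other neighbours did. In hsl2 the per-kilobase level was 456 ± 26.8 CPM for FER1 and 130 ± 11.6 CPM for FER3 (SD, n = 3). FIT at 12.8 ± 1.27, PYE at 11.5 ± 1.07 and BTS at 11.3 ± 2.49 CPM per kilobase had overlapping spreads there, above FRO2 at 0.699 ± 0.183 CPM per kilobase. The annotated lengths may differ from those the authors counted on.

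Of the 10 members, 6 passed the filter on low counts and were tested, and 4 did not (BHLH38, BHLH39, IRT1 and NAS4). With the quasi-likelihood test of edgeR, 0 of the 6 passed an adjusted p of 0.05, as did 0 of all 17989 genes tested (0%). At an unadjusted p under 0.05 the test held 1 of the 6, FRO2, against 13.5% of all genes. DESeq2 called 0 of the 6, against 1.62% of all genes. The CPM values of the genotypes did not overlap for 3 of the 6, against 20.7% of all genes: BTS and FRO2 were lower in hsl2, against 9.44% of all genes, and PYE was higher, against 11.3%. The 6 had a median log2 fold change (hsl2 over wild type) of -0.14, against 0.01 over all genes tested, with 2 above and 4 below 0. In RNA from whole root tips, fewer cells of a type and less RNA per cell cannot be told apart.

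**Figure D1:**
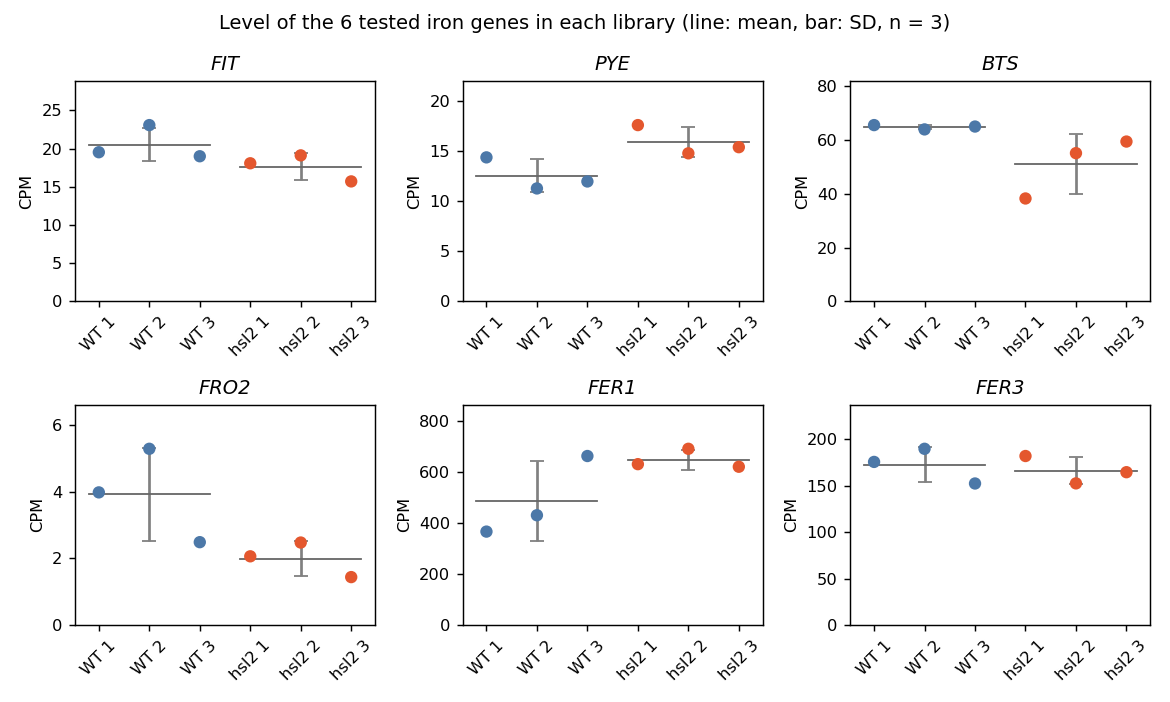
Level of each tested iron gene in CPM (vertical axes from 0) in the 3 wild type (WT, blue) and 3 hsl2 (red) libraries, with the mean as a line and the SD as a bar. FER1 in wild type 3 (663 CPM) sits among the hsl2 libraries (621 to 691 CPM), BTS is lowest in hsl2 1 (38.3 CPM), and FRO2 in wild type 3 (2.49 CPM) is beside hsl2 2 (2.48 CPM).

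FIT (AT2G28160), the central activator of root iron uptake, was present throughout. Its levels were 19.5, 23.1 and 19.0 CPM in wild type 1, 2 and 3, and 18.1, 19.1 and 15.7 CPM in hsl2 1, 2 and 3, from 240 to 397 counts per library. The genotypes overlapped, with the highest value in wild type 2 and the lowest in hsl2 3. The means were 20.5 ± 2.22 and 17.6 ± 1.75 CPM (SD, n = 3), and the log2 fold change was -0.22 (standard error 0.15, 95% interval -0.55 to 0.11, adjusted p = 0.524, edgeR). Without wild type 2 it was -0.13, and without hsl2 3 it was -0.14.

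The bHLH partners of FIT were almost without reads. BHLH38 (AT3G56970) had 0 counts in 5 libraries and 4 counts in hsl2 1, or 0.285 CPM (95% Poisson interval 0.0776 to 0.729, counting error only). BHLH39 (AT3G56980) had 1 count in wild type 2, 2 counts in hsl2 1, 4 counts in hsl2 2 and 0 in the other 3 libraries. No genotype difference was detectable at this depth. The 2 genes lie next to each other in TAIR10.1 and are close paralogs, so the split of these few reads is uncertain. BHLH38 also overlaps PIP5K4 on the opposite strand, which had 173 to 453 counts per library, and the strand setting of the counting is unknown. Their paralog BHLH100 had 0 counts in every library, so that its level was below 0.148 to 0.213 CPM. BHLH101, the remaining paralog of the group, had 7, 13 and 4 counts in wild type and 3, 2 and 6 in hsl2, below the filter. The wild type and hsl2 counts of BHLH101 overlapped.

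PYE (AT3G47640) was at 14.4, 11.3 and 12.0 CPM across wild type libraries, and at 17.6, 14.8 and 15.4 CPM in hsl2, from 183 to 292 counts. The hsl2 libraries all lay above the wild type ones, narrowly so for wild type 1 and hsl2 2. The means were 12.5 ± 1.63 and 15.9 ± 1.48 CPM (SD, n = 3), and the log2 fold change was 0.34 (standard error 0.16, 95% interval -0.01 to 0.69, adjusted p = 0.377, edgeR). The highest value was in hsl2 1, the library with the green tissue transcripts, and the part of these in the PYE value was not tested. Without hsl2 1 the log2 fold change was 0.24.

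BTS (AT3G18290) had the closest wild type values of the tested members, at 65.6, 64.0 and 65.1 CPM, a coefficient of variation of 1.26%. These came from 1040 to 1334 counts per library, for which counting error alone would give a wider spread. In hsl2 BTS was at 38.3, 55.2 and 59.5 CPM, a coefficient of variation of 22.0%. The difference in spread between genotypes was not tested. All hsl2 libraries were below all wild type libraries, and hsl2 1 was far below the other 2. The means were 64.9 ± 0.818 and 51.0 ± 11.2 CPM (SD, n = 3), and the log2 fold change was -0.35 (standard error 0.17, 95% interval -0.72 to 0.02, adjusted p = 0.391, edgeR). Without hsl2 1, which had the highest summed green tissue level (79.3 CPM) and the lowest summed root tip level (86.3 CPM), the log2 fold change was -0.20. The part of these marker differences in the BTS value was not tested.

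Of the uptake genes proper, IRT1 (AT4G19690), the main iron transporter of the root epidermis, was seen in 1 library only. It had 9 counts in hsl2 1, or 0.640 CPM (95% Poisson interval 0.293 to 1.22), and 0 counts in the other 5 libraries, where the floor was 0.148 to 0.196 CPM. NAS4 (AT1G56430) had 1 count, again in hsl2 1, and 0 elsewhere. NAS1, its paralog, had 20 counts in hsl2 1, 4 in hsl2 2, 2 in wild type 2 and 0 in the other 3 libraries. CYP82C4, a cytochrome P450 gene of the iron shortage response and named after its values were seen, had 5 counts in hsl2 1 and 0 in the other 5. Over the whole table, 15 genes had at least 4 counts in hsl2 1 and 0 in all others, and the same number for each of the other libraries was 4 to 8. IRT1, BHLH38 and CYP82C4 were among the 15. These reads came from the library with the green tissue transcripts. That library also had the highest summed endodermis level (30.3 CPM, against 16.8 to 26.4 CPM in the others) and the lowest summed stele level (96.5 CPM). The part of any of these tissues in the reads was not tested.

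The other paralogs were low as well. IRT2, the neighbour of IRT1 in TAIR10.1 and a close paralog, had 0, 1 and 7 counts in wild type and 3, 6 and 7 in hsl2. The high wild type library was wild type 3, whose root hair markers were also high. NAS2 had 1 to 6 counts per library and NAS3 had 0 in every library, an upper limit of 0.148 to 0.213 CPM.

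**Figure D2:**
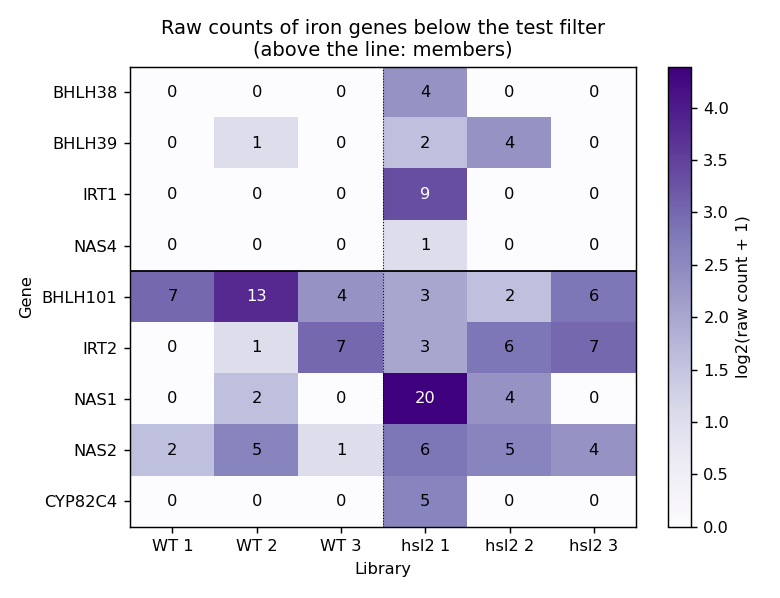
Raw read counts per library (columns, WT for wild type) for the 4 members below the filter, above the line, and 5 related iron genes below it. Colour shows log2 of the count plus 1, and each cell gives the count: IRT1 (9), NAS1 (20) and CYP82C4 (5) have their highest counts in hsl2 1.

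FRO2 (AT1G01580), the ferric-chelate reductase gene of root iron uptake, had the largest fold change of the 6 tested members. It was at 3.98, 5.29 and 2.49 CPM across wild type libraries, and at 2.06, 2.48 and 1.44 CPM in hsl2, from 22 to 86 counts. Wild type 3 and hsl2 2 were nearly equal, so the genotypes only just failed to overlap. The means were 3.92 ± 1.40 and 1.99 ± 0.523 CPM (SD, n = 3), and the log2 fold change was -0.96 (standard error 0.34, 95% interval -1.71 to -0.22). The unadjusted p was 0.0165 and the adjusted p was 0.311 (edgeR), and the adjusted p was 0.215 with DESeq2. With limma-voom and library quality weights, which down-weight libraries far from their group, FRO2 passed narrowly (adjusted p = 0.0497), within a range of 0.0497 to 0.739 over the alternatives. With those weights 1835 of 17989 genes passed. Without wild type 2 the log2 fold change of FRO2 was -0.70 (unadjusted p = 0.083, edgeR). Without hsl2 3 it was -0.78 (unadjusted p = 0.057, edgeR). Without wild type 3 it was -1.20 (unadjusted p = 0.00401, edgeR), the strongest with 1 library left out. The lowest wild type value was in wild type 3, whose summed root hair level (31.7 CPM) was nearer to that of hsl2 than to wild type 1 and 2, and the part of this in the FRO2 value was not tested. FRO1, the adjacent paralog, had 0 counts throughout, an upper limit of 0.148 to 0.213 CPM.

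FRO3, a paralog of FRO2 found mainly in vascular tissue, was at 18.1, 28.1 and 33.4 CPM across wild type libraries, and 20.1, 38.5 and 37.0 CPM in hsl2. The lowest values of both genotypes overlapped, and the log2 fold change was 0.27 with a 95% interval of -0.33 to 0.88 (adjusted p = 0.660, edgeR). Without hsl2 1 and wild type 3 it was 0.72 (adjusted p = 0.0437, edgeR), and with library quality weights 0.73 (adjusted p = 0.0322, limma-voom). In these settings 1311 of 18214 and 1835 of 17989 genes passed. The libraries left out were the lowest hsl2 and the highest wild type library for FRO3, which widens the difference by construction. Quality weights, which down-weight libraries far from their group, can do the same.

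FER1 (AT5G01600), the main iron-responsive ferritin gene, split the wild type libraries. Wild type 1 and 2 held 366 and 431 CPM, wild type 3 held 663 CPM, and the hsl2 libraries held 631, 691 and 621 CPM. Wild type 3 lay within the hsl2 range, and wild type 1 and 2 lay below all hsl2 libraries. The means were 487 ± 156 and 648 ± 38.0 CPM (SD, n = 3), and the log2 fold change was 0.41 (standard error 0.21, 95% interval -0.04 to 0.87, adjusted p = 0.404, edgeR). Without wild type 3 it was 0.70 (adjusted p = 0.104, edgeR), and without wild type 1 it was 0.23 (adjusted p = 0.789, edgeR). With both hsl2 1 and wild type 3 left out it was 0.72 and passed (adjusted p = 0.00953, edgeR). It also passed with library quality weights (0.65, adjusted p = 0.0214, limma-voom). In these settings 1311 of 18214 and 1835 of 17989 genes passed. Leaving out wild type 3, the wild type library within the hsl2 range, widens the FER1 difference by construction. That pass is therefore no separate support for a genotype difference. Quality weights, which down-weight libraries far from their group, can widen the difference in the same way. Their pass is no separate support either. Over the alternatives the adjusted p ran from 0.00953 to 0.789.

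The summed root hair markers followed the same split as FER1. They were at 6.49 and 9.78 CPM in wild type 1 and 2, at 31.7 CPM in wild type 3, and at 21.9, 39.5 and 45.1 CPM in hsl2 1, 2 and 3. The part of root hair or older epidermal tissue in the FER1 value was not tested. FER1 overlaps AT5G01595, a long non-coding RNA gene on the opposite strand in TAIR10.1, which had 4 to 17 counts per library against 6998 to 13671 for FER1.

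FER3 (AT3G56090), a second plastid ferritin gene, was at 175, 190 and 152 CPM across wild type libraries, and at 182, 152 and 164 CPM in hsl2. The genotypes overlapped over almost their whole range, with wild type 3 the lowest library. The means were 172 ± 18.8 and 166 ± 14.8 CPM (SD, n = 3), and the log2 fold change was -0.05 (standard error 0.14, 95% interval -0.36 to 0.25, adjusted p = 0.882, edgeR).

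The make-up of the ferritin pool varied with FER1. The 4 ferritin genes together were at 605, 686 and 877 CPM across wild type libraries, and at 883, 914 and 849 CPM in hsl2, with means of 723 ± 140 and 882 ± 32.3 CPM (SD, n = 3; exact two-sided permutation p = 0.2, where 0.1 is the smallest p that 3 against 3 allows). FER1 gave 60.5% (95% exact binomial interval 59.7 to 61.4), 62.8% (61.9 to 63.7) and 75.5% (74.8 to 76.2) of ferritin counts in wild type 1, 2 and 3. In hsl2 1, 2 and 3 it gave 71.5% (70.7 to 72.3), 75.6% (75.01 to 76.3) and 73.1% (72.3 to 73.9), where intervals cover counting error only. Wild type 3 again lay within the hsl2 range, and the difference between genotypes did not exceed the spread between libraries (66.3 ± 8.09% against 73.4 ± 2.09%, exact two-sided permutation p = 0.3). The ratio of FER1 to FER3 counts was 2.09, 2.27 and 4.35 in wild type and 3.47, 4.54 and 3.78 in hsl2.

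The 2 remaining ferritin genes were lower than FER1 and FER3 in share. FER4 gave 4.02 to 5.56% of the ferritin counts. Its level was 33.6, 29.97 and 35.3 CPM across wild type libraries, and 36.7, 43.3 and 39.3 CPM in hsl2, with no overlap, and a log2 fold change of 0.27 with a 95% interval of -0.02 to 0.56 (adjusted p = 0.396, edgeR). FER2, the ferritin gene best known from seeds, was at 27.1 to 35.6 CPM across wild type libraries, and 24.9 to 33.2 CPM in hsl2, a log2 fold change of -0.12 with a 95% interval of -0.48 to 0.23 (adjusted p = 0.741, edgeR).

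**Figure D3:**
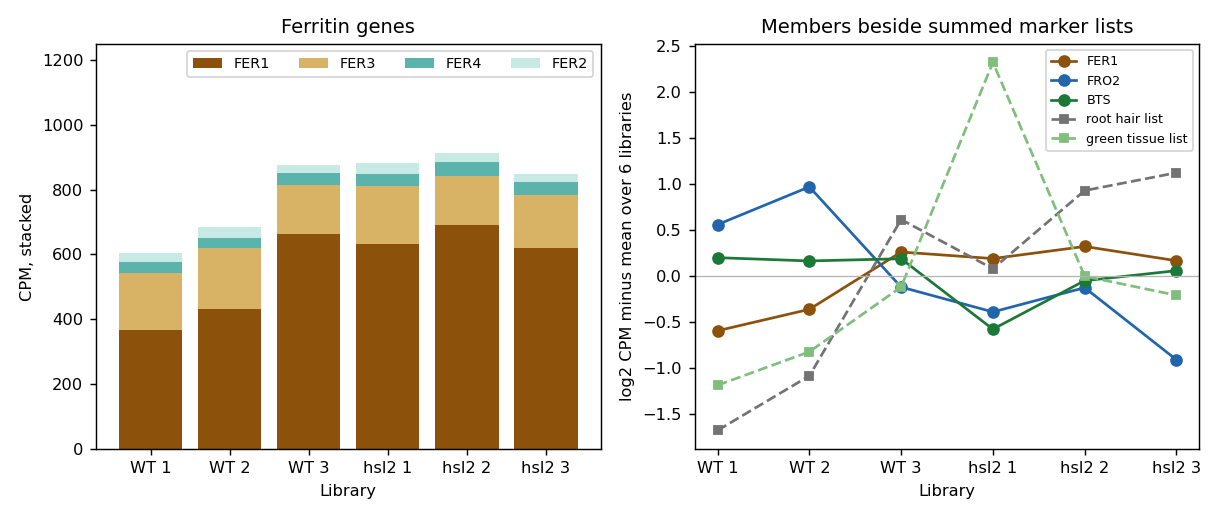
Left, CPM of the 4 ferritin genes stacked per library, from 605 CPM in wild type (WT) 1 to 914 CPM in hsl2 2. Right, log2 CPM minus its mean over the 6 libraries for FER1, FRO2 and BTS (circles) and for the summed root hair and green tissue markers (squares), where the lines only join libraries: FER1 and the root hair list are both low in wild type 1 and 2, and BTS is lowest where the green tissue list is highest, in hsl2 1.

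A wider list of 47 other iron genes was set beside the members. Of these, 24 were tested and 23 were not, 8 of which had 0 counts in every library. With edgeR 0 of the 24 passed. At an unadjusted p under 0.05 there were 2 higher and 2 lower in hsl2, against 7.53% and 6.01% of all genes tested. DESeq2 called 1 of the 24, against 1.62% of all genes. The CPM values of the genotypes did not overlap for 3 lower and 3 higher in hsl2, against 9.44% and 11.3% of all genes. The median log2 fold change was 0.03, with 13 above and 11 below 0, against 0.01 over all genes tested.

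**Figure D4:**
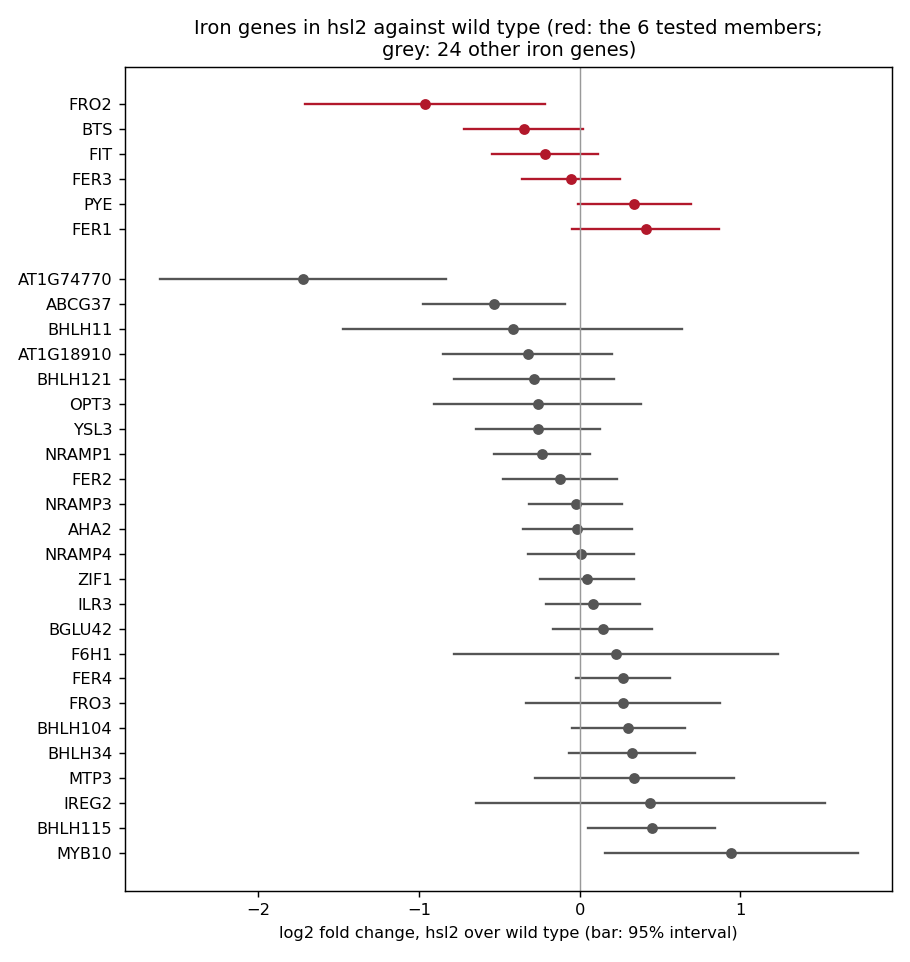
Log2 fold change of hsl2 over wild type (points) with its 95% interval (bars) for the 6 tested members in red and the 24 other tested iron genes in grey. FRO2 (-0.96) and the zinc ion binding protein gene AT1G74770 (-1.72) are the lowest of their groups, and most intervals cross 0.

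The smallest p of the wider list belonged to AT1G74770, a paralog of BTS that is annotated as a zinc ion binding protein gene. It was at 2.85, 6.21 and 2.43 CPM across wild type libraries, and at 1.14, 1.31 and 0.981 CPM in hsl2, from 15 to 101 counts. All hsl2 libraries were below all wild type libraries, and wild type 2 was highest. The log2 fold change was -1.72 (standard error 0.40, adjusted p = 0.182 in edgeR, adjusted p = 0.0115 in DESeq2). Without wild type 2 it was -1.20 (adjusted p = 0.371, edgeR). It passed without hsl2 1 and wild type 3 (-1.94, adjusted p = 0.0257, edgeR) and with library quality weights (-1.46, adjusted p = 0.0180, limma-voom). Those settings called 1311 of 18214 and 1835 of 17989 genes. Wild type 3 was the wild type library nearest to hsl2 for AT1G74770, so leaving it out widens the difference by construction. The passes in those settings are no separate support for a genotype difference. AT1G18910, also a paralog of BTS, carries the same annotation. It was at 36.8, 44.8 and 34.3 CPM across wild type libraries, and 18.9, 37.8 and 35.7 CPM in hsl2. The log2 fold change of AT1G18910 was -0.32 (adjusted p = 0.546, edgeR).

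ABCG37, a transporter that exports phenolic compounds from the root, was at 256, 323 and 312 CPM across wild type libraries, and at 147, 255 and 213 CPM in hsl2. The genotypes did not overlap, by less than 1 CPM between wild type 1 and hsl2 2, and hsl2 1 was lowest. The log2 fold change was -0.54 (standard error 0.20, adjusted p = 0.328, edgeR), and -0.37 without hsl2 1. NRAMP1, a manganese and iron transporter, was at 99.1 to 124 CPM across wild type libraries, and 89.03 to 95.05 CPM in hsl2, a log2 fold change of -0.23 (adjusted p = 0.458, edgeR).

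The transcription factor genes of the wider list had values in both directions. MYB10, a MYB factor of the iron shortage response, was at 0.836, 1.17 and 0.789 CPM across wild type libraries, and 2.21, 1.87 and 1.31 CPM in hsl2. These levels came from only 13 to 37 counts per library, and the log2 fold change was 0.95 (standard error 0.35, adjusted p = 0.3298, edgeR). The genotypes did not overlap, and hsl2 1 was highest. BHLH115, BHLH104 and BHLH34 belong to the bHLH group that acts above BHLH38 and BHLH39. BHLH115 was at 21.8, 21.4 and 31.6 CPM across wild type libraries, and 37.7, 33.97 and 30.3 CPM in hsl2, a log2 fold change of 0.45 (adjusted p = 0.340, edgeR). Wild type 3 lay above hsl2 3. Without hsl2 1 and wild type 3 the value of BHLH115 was 0.57 and passed (adjusted p = 0.0235, edgeR). It also passed with library quality weights (0.51, adjusted p = 0.0281, limma-voom). Those settings called 1311 of 18214 and 1835 of 17989 genes. Wild type 3 was the highest wild type library for BHLH115, so leaving it out widens the difference by construction. Leaving out hsl2 1, the highest hsl2 library, narrows it. The passes in those settings are no separate support for a genotype difference. BHLH104 and BHLH34 had log2 fold changes of 0.30 and 0.33 (adjusted p = 0.423 and 0.439, edgeR). ILR3, of the same group, had 0.08 with a 95% interval of -0.21 to 0.38 (adjusted p = 0.794, edgeR). BHLH121 and BHLH11 had log2 fold changes of -0.28 and -0.42 (adjusted p = 0.576 and 0.701, edgeR).

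Genes with patterns most like those of the members were named by Pearson r of log2 CPM over the 6 libraries, as a description, since with 6 libraries many genes reach high values. For FER1 they were AT1G01830 (r = 0.999), the tonoplast aquaporin gene GAMMA-TIP (0.996) and AT3G21600 (0.995), and 2.13% of tested genes had r above 0.9. For BTS they were XRN3 (0.999), AT5G47860 (0.998) and NRPB2 (0.998), with 7.59% above 0.9. For FIT they were AT5G45460 (0.992), AT2G26440 (0.991) and AT3G45530 (0.986), with 0.851% above 0.9. For FER3 they were AT3G11070 (0.996), AT4G36960 (0.988) and cpHsc70-1 (0.977), with 1.03% above 0.9. These libraries share the differences in tissue markers given above.

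**Figure D5:**
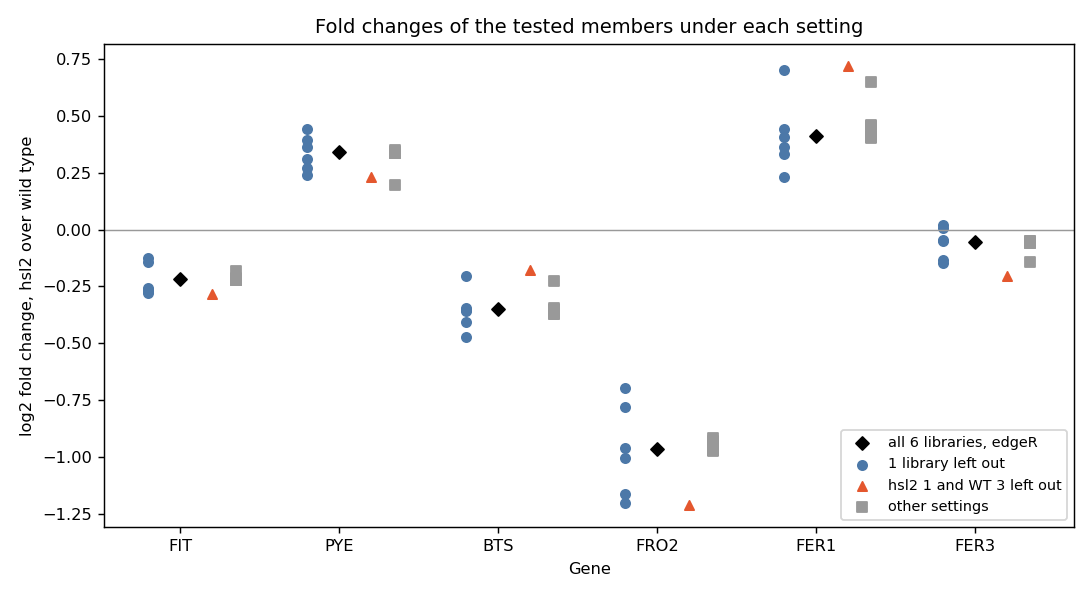
Log2 fold change of hsl2 over wild type (vertical axis) for each tested member with all 6 libraries in edgeR (diamond), with 1 library left out (circles), with hsl2 1 and wild type (WT) 3 left out (triangle) and under the other settings (squares). FER1 ranges from 0.23 to 0.72 and BTS from -0.47 to -0.18, and only FER3 crosses 0.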

How the data were processed

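Raw counts of reads per gene, 1 file per sample and neither normalized nor pooled, were used as the authors deposited them. Trimmomatic 0.33, STAR 2.5.1b and featureCounts were used, per the submitters' processing notes, and stranded TruSeq libraries were made, per the labels' protocols. The sources used here give no genome build, annotation or strand setting, so no coordinates or sequences are printed, and TAIR10.1 served only for names, neighbours and exon lengths.

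Groups came from the sample titles. All 37336 genes were read, and 17989 passed the filter filterByExpr. The fit used R 4.3.3 and edgeR 4.0.16 (TMM, quasi-likelihood F-test, genotype as the only term, 4 residual degrees of freedom), with Benjamini-Hochberg adjustment over all genes tested and a threshold of 0.05. Standard errors came from the F statistic. Alternatives used DESeq2 1.42.0 and limma 3.58.1 (voom). Gene calls were tested on simulated data. The labels do not say whether replicates were grown apart, and p-values therefore measure only a spread between samples that may be technical. No library duplicated another: the chi-square per degree of freedom was 6.17 to 49.8 for pairs of libraries.

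The members, the lists of genes and markers and the alternatives were chosen with earlier results of these data known. Named genes were all 10 members, their paralogs, the 8 other iron genes with the smallest p, and the 3 genes most like FIT, BTS, FER1 and FER3. IRT1 was too low for that comparison. The other iron genes named (CYP82C4, FRO1, ILR3, BHLH121, BHLH11, NRAMP3, NRAMP4, ZIF1, AHA2, YSL3, OPT3) were chosen after their values were seen. The summed levels of all 5 marker lists overlapped between genotypes, including those of endodermis (16.8 to 30.3 CPM) and stele (96.5 to 166 CPM). For root tip, root hair and green tissue the overlap rested on wild type 3 alone (131, 31.7 and 14.6 CPM). Wild type 1 and 2 lay above all hsl2 libraries in the summed root tip level, and below them for root hair and green tissue. This order was not shared by every root tip marker. AT1G65570 did not overlap between genotypes (20.5 to 47.9 CPM in wild type, 6.54 to 15.2 CPM in hsl2), and the other root tip markers overlapped. PLT1 in wild type 2 (50.7 CPM) and PLT2 in wild type 1 (20.2 CPM) lay below hsl2 3 (60.1 and 23.4 CPM).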

Additional observations from a re-analysis of the deposited data

How the results depend on the processing

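The 6 tested members and the counts of calls were recomputed under 15 alternatives. FIT, PYE and BTS kept their direction and did not pass under any of the 15. FER1 passed without hsl2 1 and wild type 3 (0.72) and with limma-voom quality weights (0.65), and FRO2 passed with those weights (-0.93). FER3 changed sign when single libraries were left out: its log2 fold change then ran from -0.15 to 0.020, being 0.020 without wild type 2 and 0.0064 without hsl2 2. The cause was not tested. The number of genes called, 0 in the main test, was 110 without a filter, 292 with DESeq2, 1311 without hsl2 1 and wild type 3, 1835 with quality weights, and 0 to 55 with 1 library left out, the most without wild type 3. Other iron genes called were 3 without hsl2 1 and wild type 3, 1 with DESeq2 and 3 with quality weights, against 0. Over all genes these settings called 1311 of 18214, 292 of 17989 and 1835 of 17989.

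With the replicate number as a block edgeR called 52 genes and 0 of the iron genes. Deviations of same-numbered samples correlated at 0.14, 0.06 and 0.02 for replicates 1, 2 and 3, against a threshold of 0.1 that replicate 1 exceeded. Samples with different numbers were not compared, so whether the numbers pair the samples was not settled. Counts of 0 to 9 per library limit the 4 untested members to presence or absence. Counts of 22 to 86 limit FRO2.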

Other observations

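Genes of iron movement in the cell and plant were measured with intervals of different width. The vacuolar iron exporter gene NRAMP3 was at 27.4 to 30.6 CPM in wild type and 26.6 to 31.1 CPM in hsl2, a log2 fold change of -0.03 with a 95% interval of -0.32 to 0.26 (adjusted p = 0.943, edgeR). Its paralog NRAMP4 had 0.01 with an interval of -0.32 to 0.34 (adjusted p = 0.983, edgeR). The nicotianamine transporter gene ZIF1, a target of PYE, had 0.04 with an interval of -0.25 to 0.34 (adjusted p = 0.898, edgeR). The proton pump gene AHA2, which acidifies the soil around the root, was at 432 to 594 CPM in wild type and 482 to 547 CPM in hsl2, with -0.01 and an interval of -0.35 to 0.33 (adjusted p = 0.973, edgeR). The transporter gene YSL3 had -0.26 with an interval of -0.64 to 0.13 (adjusted p = 0.518, edgeR), and OPT3 had -0.26 with a wider interval of -0.90 to 0.38 (adjusted p = 0.694, edgeR).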
